A study of Mus musculus with 12 samples.

Results

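Parthenogenetic embryonic stem cells (pESCs) and female embryonic stem cells (ESCs) with a mother and a father were compared for CpG methylation, with 2 libraries of each among the 12 libraries of the series. The comparison covers the 148012 features that have a methylation level in all 4 libraries, of 176831 features with a level in at least 1 library. Both cell types are labelled as C57BL6 lines. According to the study, the pESCs came from oocytes of Actin-GFP females activated with strontium chloride and cytochalasin D. The ESCs came from embryos of Actin-GFP females mated to Actin-GFP males. Both were derived on mouse embryonic fibroblast feeders, first in serum replacement with PD0325901 and LIF and then in serum with LIF. Before induction of germ cell-like cells both were kept in a medium with a lower dose of PD0325901. The study's methods do not say which medium preceded collection for methylation sequencing. Levels of the other 8 libraries are given here only at the imprinted islands. These 8 libraries also enter the fit of all 12, and every result quoted from that fit rests on them too. They are germ cells of the embryo (PGCs, at E9.5 or E12.5) and germ cell-like cells (PGCLCs) labelled as induced from ESCs or from pESCs. All 6 single-copy Y-linked genes checked had a level in each of these 8 libraries and in none of the ESC or pESC libraries, so the PGCLC libraries go against a source without a Y chromosome, the PGC libraries go against the female embryos from which the study's methods take these cells, and all 8 are named here only by their labels. The labels do not say whether the 2 libraries of a group are separate lines or cultures, so every test measures only the spread between these libraries, and a property of a line cannot be told apart from parthenogenetic origin.

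Methylation was read by reduced representation bisulfite sequencing (RRBS), in which MspI cuts the genome at CCGG, so that CpG-rich fragments are favoured, and bisulfite converts unmethylated cytosines. The level of a feature is the methylated share of its CpG readings, printed here in percent, and a difference of levels is in percentage points. The number of reads behind a level is unknown. Features belong to 8 overlapping classes (CpG islands, island shores, promoters, 5' UTRs, exons, introns, 3' UTRs and repeats), and the same CpGs can be read in several of them. A level averages both copies of a chromosome and all cells of a culture, so fewer cells with a methylated copy and fewer methylated CpGs per cell cannot be told apart.

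Genomic imprints are stretches of DNA that are methylated on the copy from only one parent and set the expression of nearby genes by parental origin. Most are methylated in the growing oocyte, and these are called maternally methylated imprints. A few, among them those at H19 and at Meg3, are methylated in sperm. A pESC has received its whole genome from an oocyte and no sperm genome, which is why the imprints are the natural place to compare it with a biparental ESC. The protein ZFP57, which keeps imprints methylated after fertilization, recognises the methylated hexamer TGCCGC.

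CpG islands are described first, since most of their features past the gap lay at imprints. At 16 of 13987 CpG islands both pESC libraries lay above both ESC libraries with a gap of at least 10 points between the nearest libraries, and 14 of the 16 lay within 5 kb of a gene on a list of 33 genes at maternally methylated imprints. Parts of 7 of them are shown as the GRCm38.p6 RefSeq plus strand, with TGCCGC or its reverse complement GCGGCA in capitals. Each is the stretch of 120 bases of the island, outside annotated UTRs, with the most copies of the hexamer. The 7 do not stand for all 14. Not shown, among others, are the Peg10 stretch picked in the same way, with 1 copy, and the longer Zrsr1 island, with 0. The start island of Igf2r, which lay under 2% in all 4 libraries and is in the same gene as the Airn island, and the island at Mid1 near the end of the X chromosome follow for comparison.
Airn chr17:12741708-12741827: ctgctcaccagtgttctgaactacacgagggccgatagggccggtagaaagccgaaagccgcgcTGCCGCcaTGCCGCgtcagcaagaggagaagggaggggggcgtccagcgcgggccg
Kcnq1ot1 chr7:143295628-143295747: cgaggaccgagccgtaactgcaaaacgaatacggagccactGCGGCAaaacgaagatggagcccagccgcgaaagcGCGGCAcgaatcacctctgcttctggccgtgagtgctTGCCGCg
Peg13 chr15:72809938-72810057: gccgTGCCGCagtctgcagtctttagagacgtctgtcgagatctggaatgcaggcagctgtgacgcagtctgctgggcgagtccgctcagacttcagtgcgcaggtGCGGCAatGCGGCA
Plagl1 chr10:13091025-13091144: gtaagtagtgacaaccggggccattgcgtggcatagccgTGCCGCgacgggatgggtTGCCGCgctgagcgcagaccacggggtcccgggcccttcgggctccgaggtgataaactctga
Nap1l5 chr6:58906812-58906931: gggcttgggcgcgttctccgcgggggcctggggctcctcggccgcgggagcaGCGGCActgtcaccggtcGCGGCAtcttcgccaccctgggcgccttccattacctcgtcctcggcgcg
Inpp5f chr7:128687970-128688089: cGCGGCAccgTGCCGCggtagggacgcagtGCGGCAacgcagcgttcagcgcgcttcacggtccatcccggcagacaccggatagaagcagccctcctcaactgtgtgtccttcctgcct
Nnat chr2:157560299-157560418: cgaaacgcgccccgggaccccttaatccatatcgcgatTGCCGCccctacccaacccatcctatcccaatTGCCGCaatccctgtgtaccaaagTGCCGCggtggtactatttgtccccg
Igf2r start chr17:12769375-12769494: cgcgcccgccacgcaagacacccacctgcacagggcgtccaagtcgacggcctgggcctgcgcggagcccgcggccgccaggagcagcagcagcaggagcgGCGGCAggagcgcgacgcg
Mid1 chrX:169987611-169987730: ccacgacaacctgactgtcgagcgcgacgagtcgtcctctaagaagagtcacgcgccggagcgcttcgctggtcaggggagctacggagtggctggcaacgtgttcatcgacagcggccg

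The hexamer was common in these islands. At least 1 copy on either strand was found in 13 of the 14 imprint islands (92.9%), against 7457 of 13983 islands with a sequence (53.3%). The median density was 5.66 copies per kb in the 14 islands and 0.838 per kb over all islands. In windows of equal length, 300 bases around the centre of each island, 12 of 14 (85.7%) and 32.9% held a copy. The Airn island held 7 copies, the islands at Plagl1, Inpp5f and the longer island at Nespas 6 each, and the longer island at Zrsr1 held 0 although it was among the most different. Of the 20 other islands within 5 kb of the listed genes, 11 (55.0%) held a copy. The 14 islands had a median GC content of 63.2%, against 68.6% over all islands. A match is a description of the letters and not evidence of binding.

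Genome-wide levels did not separate the cell types. The mean over all features was 27.4% and 22.5% in the ESC libraries and 25.4% and 24.4% in the pESC libraries, so the ESC libraries enclosed the pESC libraries. The difference of -0.0838 points was smaller than the SD of the ESC libraries (3.44) and of the pESC libraries (0.647), and the exact two-sided permutation test gave p = 1.0. The smallest p this test allows with 2 against 2 libraries is 0.333. CpG islands had the lowest levels, with 3.86%, 3.50%, 3.51% and 3.84% in ESC 1, ESC 2, pESC 1 and pESC 2, and repeats the highest, with 50.3%, 41.9%, 46.5% and 44.6%. Promoters had 16.8%, 13.8%, 15.5% and 15.2%. In none of the 8 classes did both pESC libraries lie on the same side of both ESC libraries. The ESC libraries differed from each other by at least 10 points at 26.2% of features and the pESC libraries at 8.20%, and ESC 1 had the higher level at 58.3% of features.

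By limma on log odds of the levels, with Benjamini-Hochberg adjustment over all 148012 features, no feature was called at an adjusted p under 0.05 with a difference of at least 10 points (0%). At an unadjusted p under 0.05 there were 2054 features, of which 1073 were higher and 981 lower in pESCs, and the smallest adjusted p was 0.0795. After centring every library on its median log odds, the split was 680 higher and 1336 lower. The planned fit of all 12 libraries, which borrows the spread of the other groups, called 70 of 133311 features, and 69 of them were higher in pESCs (0.0518%). Of those 69, 56 lay at genes of maternally methylated imprints, 2 were repeats and 11 lay elsewhere. The share of features at those genes over all 148012 was 0.151%.

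Counted by the gap between the nearest libraries, 249 features were higher in pESCs by at least 10 points (0.168%) and 170 were lower (0.115%). These counts rest on having all 4 libraries: without ESC 1 they were 4167 and 692, and without ESC 2 they were 1041 and 8122. Without pESC 1 they were 1240 and 1162, and without pESC 2 they were 1392 and 882. Outside repeats there were 138 and 51, and 76 of the 138 (55.1%) lay at genes of maternally methylated imprints, where 0.214% of the non-repeat features lie. None of the 51 lower features did. Those genes held 224 features in all. Joined within 50 kb, the 138 higher features fell into 65 loci. Each of the 14 loci at maternal imprint genes held from 2 to 13 features, while the 51 other loci held 62 features.

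The higher features at genes of maternally methylated imprints were counted in each class, without a test between classes. For these, the first share in brackets is that of the class past the gap, and the second that of the class at those genes. Among islands 14 of 16 higher features lay there (0.114% and 0.243%) and among shores 13 of 21 (0.132% and 0.258%). Among promoters 16 of 23 did (0.116% and 0.207%) and among 5' UTRs 6 of 11 (0.0982% and 0.205%). Among exons 14 of 31 did (0.154% and 0.203%), among introns 12 of 30 (0.154% and 0.174%) and among 3' UTRs 1 of 6 (0.143% and 0.238%). The lower features numbered 1 island (0.00715%), 8 shores (0.0504%), 6 promoters (0.0304%), 4 5' UTRs (0.0357%), 18 exons (0.0893%), 10 introns (0.0512%) and 4 3' UTRs (0.0952%). Among repeats, which carry no genome position, 111 entries were higher (0.256%) and 119 lower (0.275%).

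**Figure D1:**
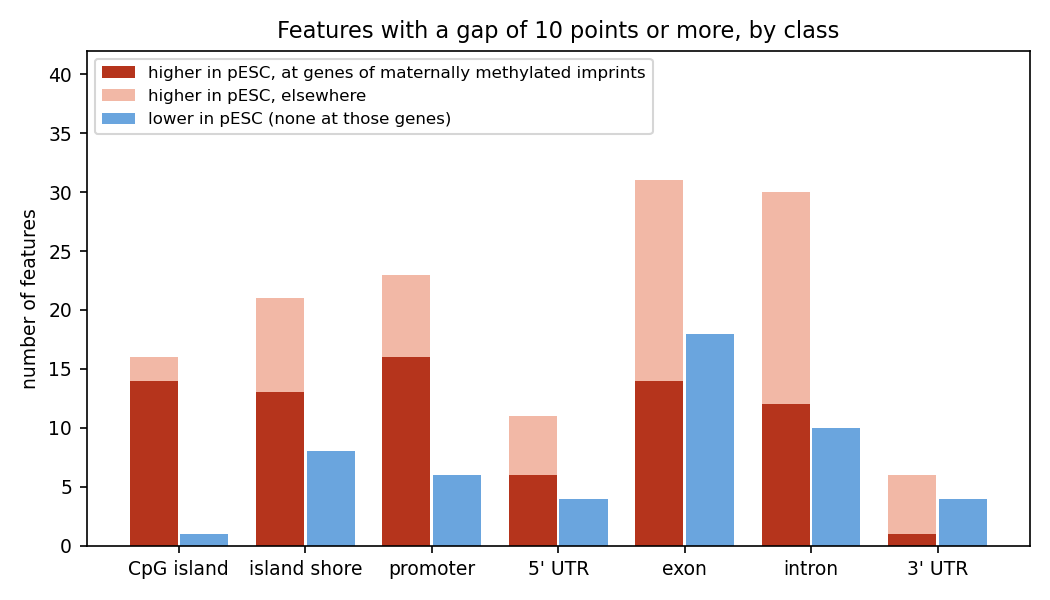
Number of features (vertical axis) in each class with a gap of at least 10 points between the nearest libraries, as bars for features higher in pESCs (stacked by whether they lie at genes of maternally methylated imprints) and lower in pESCs. Repeats are not drawn. Islands show 14 of 16 higher features at those genes and 1 lower feature, and exons show 14 of 31 and 18 lower features.

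Airn is the non-coding RNA that silences the paternal copy of Igf2r, the receptor that clears insulin-like growth factor 2. The island at chr17:12741441-12742489, in introns of both Airn and Igf2r, had 1.91% and 2.20% in ESCs and 61.7% and 64.2% in pESCs. This was the largest gap of any island, 59.5 points, and the groups were far apart. The log2 odds differed by 5.77 (SE 0.32), with an adjusted p of 0.0795 in the limma fit of 4 libraries and 3.08e-06 in the fit of all 12. At the start of Igf2r itself, chr17:12769059-12770009, the island had 1.55%, 1.71%, 0.791% and 1.75% in ESC 1, ESC 2, pESC 1 and pESC 2. The same gene therefore held an island that was different by 60.9 points and an island at which the groups overlapped.

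Zrsr1, a splicing factor gene that lies inside Commd1 and is expressed from the paternal copy, had the next largest gap. Its longer island, chr11:22971975-22972993, had 1.58% and 1.80% in ESCs against 41.1% and 41.9% in pESCs, with an adjusted p of 0.0795. The shorter island, chr11:22973117-22973331, had 0.871% and 1.47% against 31.1% and 23.4%. With 13 features of 6 classes past the gap, this locus held the most.

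The islands at Peg10, Plagl1 and Grb10 were nearly unmethylated in ESCs and partly methylated in pESCs. At Peg10 (chr6:4747209-4748412), a retrotransposon-derived gene needed for the placenta, levels were 3.25% and 3.36% in ESCs and 39.3% and 35.4% in pESCs. The island inside Plagl1 (chr10:13090533-13091299), which encodes a zinc finger factor of growth control, had 1.33% and 1.96% against 29.0% and 28.1%. The island of Grb10 (chr11:12025555-12026580), an adaptor that restrains insulin and growth factor signalling, had 1.74% and 2.10% against 20.4% and 25.8%. The adjusted p was 0.0995 at Peg10 and Plagl1 and 0.150 at Grb10 in the fit of 4 libraries, and in the fit of 12 it was 5.22e-05, 7.51e-05 and 0.000249. With both islands at Zrsr1 and the Airn island, 6 of the 14 imprint islands had a mean under 5% in ESCs.

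At the other 8 imprint islands ESCs kept between 14.8% and 36.0% as a group mean. Kcnq1ot1, a non-coding RNA that silences neighbouring genes on the paternal copy, had 16.5% and 31.9% in ESCs and 67.5% and 74.4% in pESCs at chr7:143295405-143295824. The ESC libraries were far apart there (SD 10.9), but the gap to the nearest pESC library was 35.6 points. The longer island at Nespas and Gnas (chr2:174298464-174300644), in the locus of the stimulatory G protein subunit, had 19.7% and 16.6% against 58.5% and 57.4%, and the shorter one (chr2:174297263-174297532) had 21.5% and 31.9% against 63.0% and 59.4%. Peg13, a non-coding RNA inside Trappc9, had 36.9% and 35.1% against 77.8% and 73.1% at chr15:72809538-72810123. This was the highest level reached in pESCs among the islands past the gap.

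Nap1l5, a histone chaperone family gene inside Herc3, had 22.6% and 25.97% in ESCs and 56.3% and 54.7% in pESCs at chr6:58906724-58907147. The island inside Inpp5f, an inositol phosphatase gene, had 27.2% and 25.2% against 48.7% and 51.7% at chr7:128687970-128688582. At Impact (chr18:12973117-12974420), a regulator of translation under amino acid stress, levels were 18.97% and 30.3% against 49.4% and 55.9%. The island of Nnat (chr2:157560051-157560581), a membrane proteolipid gene of the brain inside Blcap, was the member closest to the threshold, with 15.1% and 14.4% against 25.5% and 33.0% and a gap of 10.3 points. The nearest island outside it was at Zfp777 (chr6:48024606-48025400), with 0.884% and 2.23% against 10.7% and 11.0% and a gap of 8.45 points.

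These 14 islands were picked by the gap between the same libraries, so that their direction and lack of overlap are fixed by the choice and their p-values are a description only. The adjusted p in the fit of 4 libraries ranged from 0.0795 to 1.0, and in the fit of 12 it reached 0.171 at Nnat. The level in ESCs as a share of that in pESCs ran from 3.26% at Airn to 52.2% at Inpp5f, so the size of the difference varied widely among islands of the same kind.

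**Figure D2:**
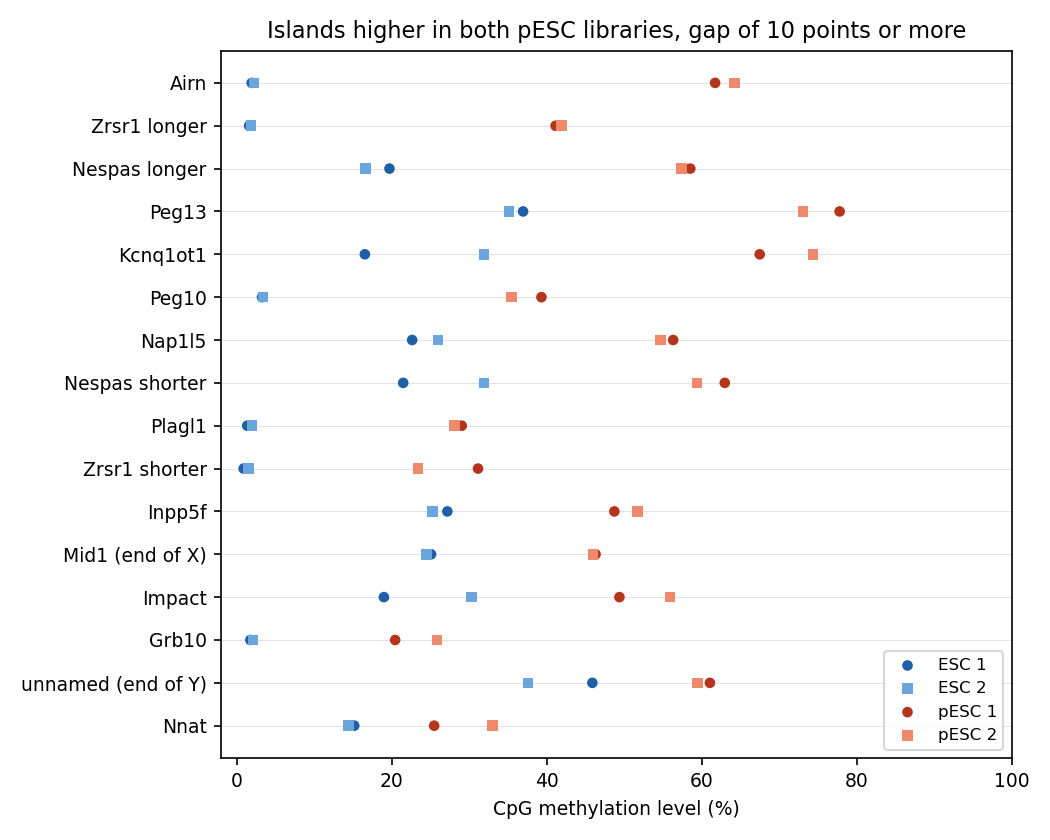
CpG methylation level in percent (horizontal axis) of the 16 islands with a gap of at least 10 points, higher in pESCs, 1 row per island and 1 point per library (ESC blue, pESC red, circles replicate 1, squares replicate 2). At 6 of the islands both ESC points lie under 5%, and at all 16 the red points lie to the right of the blue ones.

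**Figure D3:**
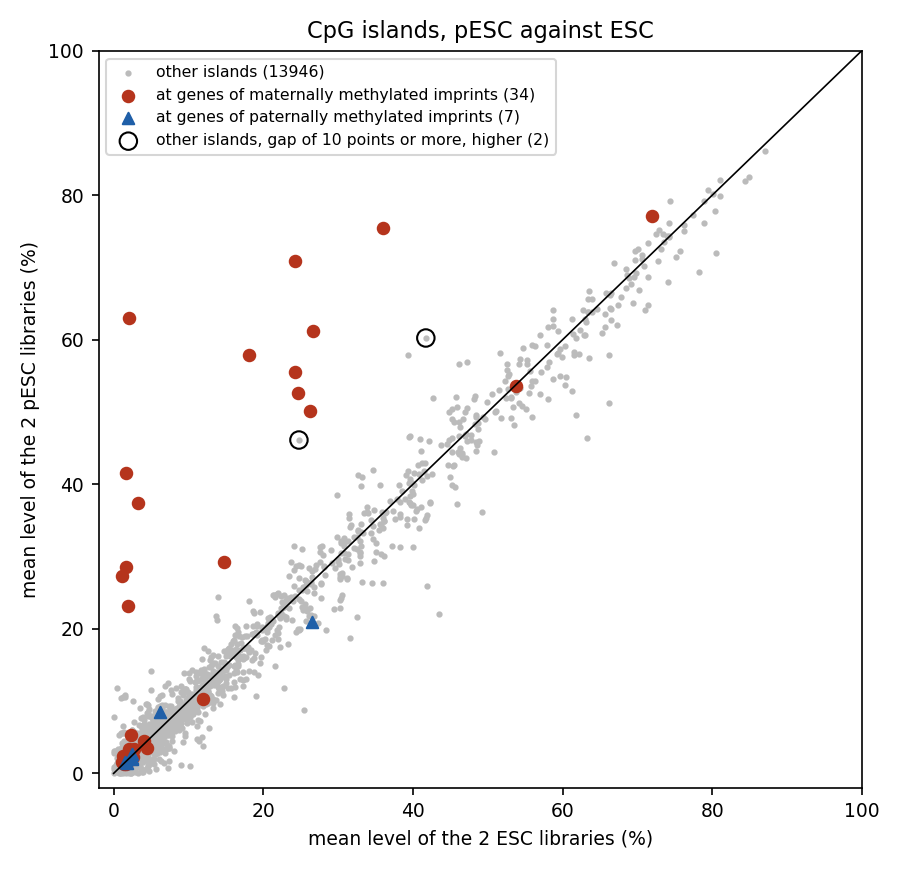
Mean level in percent of the 2 pESC libraries (vertical axis) against that of the 2 ESC libraries (horizontal axis) for all 13987 islands, with islands near genes of maternally (red) and paternally (blue) methylated imprints marked and a line of equality. The 14 red points past the gap lie far above the line. The other 20 red points and the 7 blue ones lie near it.

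The 34 islands within 5 kb of the listed maternal imprint genes had means of 11.3% and 11.1% in ESCs and 25.1% and 25.2% in pESCs. They differed by 13.98 points, against an SD of 0.113 in ESCs and 0.0971 in pESCs (n = 2 each), with p = 0.333 by exact permutation. The median difference over these islands was 1.21 points, since 20 of them changed little, against -0.0162 over all islands. Without overlap, 19 of the 34 were higher and 0 lower, where 5.8% of all islands were higher and 6.85% lower without overlap. The others included start islands of neighbouring or host genes, such as Copg2 with 1.31%, 2.10%, 1.59% and 1.86%, Herc3 with 1.34%, 2.04%, 1.22% and 2.05%, and a Trappc9 island with 66.0%, 41.6%, 59.2% and 48.0% in ESC 1, ESC 2, pESC 1 and pESC 2.

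Promoters gave the same picture over a partly different set of genes, since Snrpn, Snurf and Mest had a promoter level but no island level. Of the 33 listed genes 23 had a promoter level, and their mean was 12.9% and 12.5% in ESCs and 29.99% and 30.1% in pESCs. Without overlap 16 of the 23 were higher and 0 lower, where 9.28% of all promoters were higher and 6.03% lower, and 11 of the 23 reached the gap of 10 points. By limma 15 of the 23 had an unadjusted p under 0.05, all higher, against 143 higher and 80 lower of 19766 promoters. The median difference was 8.90 points, against 0.0265 over all promoters.

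The promoter of Snrpn, a splicing protein gene at the centre of the Prader-Willi imprint, had 34.5% and 44.8% in ESCs and 82.8% and 83.2% in pESCs. Its upstream reading frame Snurf had 33.3% and 39.4% against 77.3% and 75.8%. These were the highest promoter levels in pESCs on the list. The promoter of Mest, an enzyme of the hydrolase fold expressed from the paternal copy, had 6.73% and 6.76% against 47.6% and 44.7%. Annotated within the Mest locus, Mir335 had 6.70% and 2.94% against 55.6% and 48.6%, and the transcript Gm27568 had 11.9% and 6.67% against 80.1% and 72.1%, the largest gap of any promoter at 60.2 points. Sgce, a muscle membrane sarcoglycan gene that shares its start region with Peg10, had 3.25% and 3.36% against 39.3% and 35.4%, the same values as the Peg10 island because the same CpGs are read.

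Other promoters on the list had intermediate gaps. Plagl1 had 0.614% and 1.49% in ESCs and 26.05% and 21.3% in pESCs, Commd1 had 1.59% and 1.76% against 31.4% and 28.3%, and Inpp5f had 30.6% and 28.1% against 48.7% and 51.0%. Blcap (13.5% and 11.6% against 18.2% and 24.7%) and Herc3 (5.75% and 6.29% against 12.2% and 16.001%) were higher without overlap but under the gap. Of the listed promoters 7 overlapped between the groups. The promoter value of Nnat was 43.0%, 27.1%, 43.0% and 41.97% in ESC 1, ESC 2, pESC 1 and pESC 2, with ESC 1 as high as the pESCs. The others that overlapped were Igf2r, Mcts2, Copg2, Trappc9, Mkrn3 and Slc38a4, of which Slc38a4 had the largest difference in the opposite direction, with 10.8%, 9.09%, 4.47% and 10.4%.

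**Figure D4:**
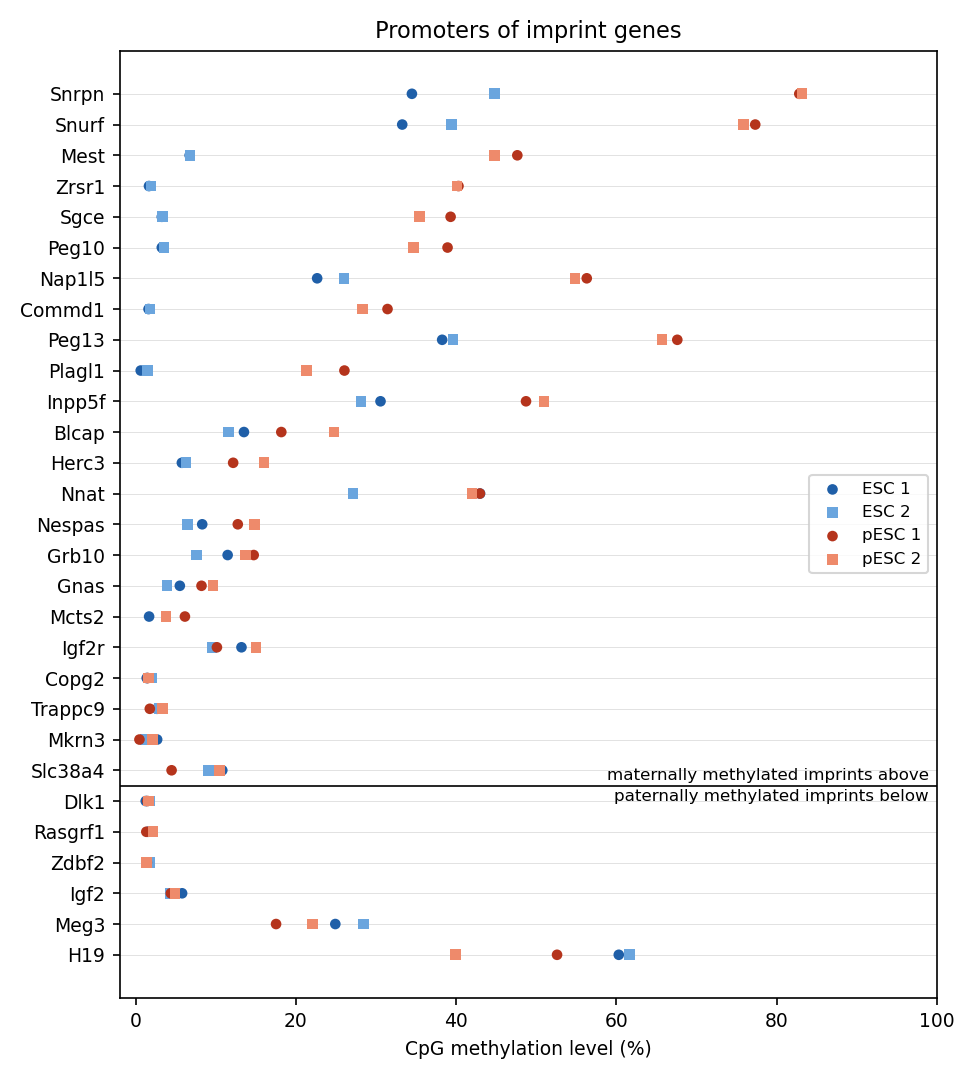
Promoter methylation level in percent (horizontal axis) of the 23 measured genes at maternally methylated imprints (above the line) and 6 at paternally methylated imprints (below), 1 point per library. Snrpn, Snurf and Mest have the largest differences of means above the line, and H19 and Meg3 are lower in both pESC libraries below it.

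Counting every class, 22 of the 33 maternal imprint genes had at least 1 feature past the gap, and none had a feature past it in the lower direction. On the other imprint lists, 1 of 7 paternal imprint genes and 1 of the 28 genes described below had a higher feature past it. Over all features 0.168% were higher past the gap, and no share over all genes was counted. An island or shore counts for every gene within 5 kb, so neighbours share features. Blcap was past the gap only through the Nnat island. Igf2r, for example, was past it only through its intron (24.9% and 23.4% in ESCs, 52.9% and 59.2% in pESCs) and the Airn island inside it. The 11 genes without such a feature were Mcts2, H13, Copg2, Peg3, Usp29, Ndn, Magel2, Mkrn3, Peg12, Cdh15 and Slc38a4. Peg3 and Usp29, paternally expressed neighbours at 1 imprint, had no promoter or island level. The exons of Peg3 had 74.7%, 59.8%, 74.5% and 68.8% and the introns of Usp29 25.7%, 18.6%, 23.2% and 24.9% in ESC 1, ESC 2, pESC 1 and pESC 2. The exon of Mcts2, a copy of a translation factor gene inside H13, was higher without overlap at a low level, with 1.37% and 2.12% against 5.76% and 5.798%.

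At the 6 measured promoters of the 7 listed genes of paternally methylated imprints pESCs were not higher without overlap at any and lower at 3. Over all promoters 9.28% were higher and 6.03% lower without overlap, so that none higher among 6 is near that share. The mean of the 6 was 15.9% and 16.7% in ESCs and 13.1% and 11.997% in pESCs, a difference of -3.72 points with an exact permutation p of 0.333. The median difference was -0.358 points. H19, the maternally expressed non-coding RNA beside Igf2, had 60.3% and 61.6% in ESCs and 52.6% and 39.9% in pESCs at its promoter. The promoter of Meg3, a non-coding RNA beside Dlk1, had 24.9% and 28.5% against 17.5% and 22.1%. Both were lower without overlap, but with gaps of 7.71 and 2.82 points and unadjusted limma p of 0.062 and 0.159 neither passed a test. Zdbf2 was also lower without overlap, at 1.51% and 1.77% against 1.38% and 1.36%, and Igf2, Dlk1 and Rasgrf1 overlapped at levels between 1.24% and 5.78%. Of the 7 islands within 5 kb of these genes 2 were higher without overlap (28.6%) and 0 lower. Over all islands 5.8% were higher and 6.85% lower. The 2 islands were at Zdbf2 (5.53% and 6.88% in ESCs, 8.43% and 8.55% in pESCs) and at Igf2 (2.47% and 2.35% against 2.68% and 2.79%). None of the 7 reached the gap of 10 points, and their mean difference was -0.559 points. The known control regions upstream of H19 and Meg3 were not analysed here.

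Gpr1 stood apart from the other genes of the paternal list. Its intron, and the exon and promoter of the non-coding RNA Platr12 inside it, had 2.12% and 2.36% in ESCs and 15.4% and 22.8% in pESCs, a gap of 13.05 points. These are the same CpGs read in 3 classes, and the fit of 12 libraries called them at an adjusted p of 0.0029. The nearby promoter of Zdbf2 showed no such rise, as given above. Oocytes methylate a stretch at Gpr1 and sperm one nearer Zdbf2. Gpr1 was listed with Zdbf2, so these 3 features are counted above as lying outside the genes of maternally methylated imprints.

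Another list held 28 genes that are imprinted in expression without an imprint mark of their own, such as Cdkn1c, Phlda2 and Ube3a. Of 20 measured promoters 3 were higher and 3 lower without overlap (15% each), where 9.28% of all promoters were higher and 6.03% lower. None reached the gap, and none had an unadjusted limma p under 0.05. Ano1 had the largest difference, with 42.2% and 33.5% in ESCs and 25.4% and 30% in pESCs, and Cdkn1c, a brake on the cell cycle, had 3.62%, 3.43%, 2.95% and 5.18%. The median difference was 0.0824 points.

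The same 14 islands were then read in the germ cell libraries, which did not enter their choice. The mean over the 14 was 13.5% and 16.02% in ESCs, 47.8% and 48.4% in pESCs, 58.3% and 60.4% in E9.5 PGCs and 37.3% and 38.5% in E12.5 PGCs. The libraries labelled ESC-PGCLC had 43.9% and 42.7%, and those labelled pESC-PGCLC had 48.2% and 47.0%. Over all 13715 islands with a level in every library the means lay between 3.42% and 7.34%. The ESC and pESC levels chose these 14 islands, so that ESCs lie below pESCs there by the choice. The list of maternal imprint genes was chosen with earlier results of these data known, so islands near its genes are not an independent set either. The 34 islands taken by their distance from those genes had means of 11.3% and 11.1% in ESCs and 25.1% and 25.2% in pESCs. In E9.5 PGCs they had 37.5% and 38.1% and in E12.5 PGCs 23.8% and 24.8%. The ESC-PGCLC libraries lay at 28.6% and 27.5% and the pESC-PGCLC libraries at 28.7% and 27.97%. In E9.5 PGCs the 14 islands were alike, with single libraries between 49.3% and 71.2%, whereas in pESCs the island means ran from 23.1% at Grb10 to 75.4% at Peg13. At the Airn island ESC-PGCLCs had 45.1% and 45.3%, against 1.91% and 2.20% in ESCs. Between the PGCLC groups 9 of the 14 islands were higher in pESC-PGCLCs without overlap and Nnat was lower, where of 13835 islands 14.4% were higher and 22.7% lower. Whether the difference between the PGCLC groups differs from that between pESCs and ESCs was not tested.

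**Figure D5:**
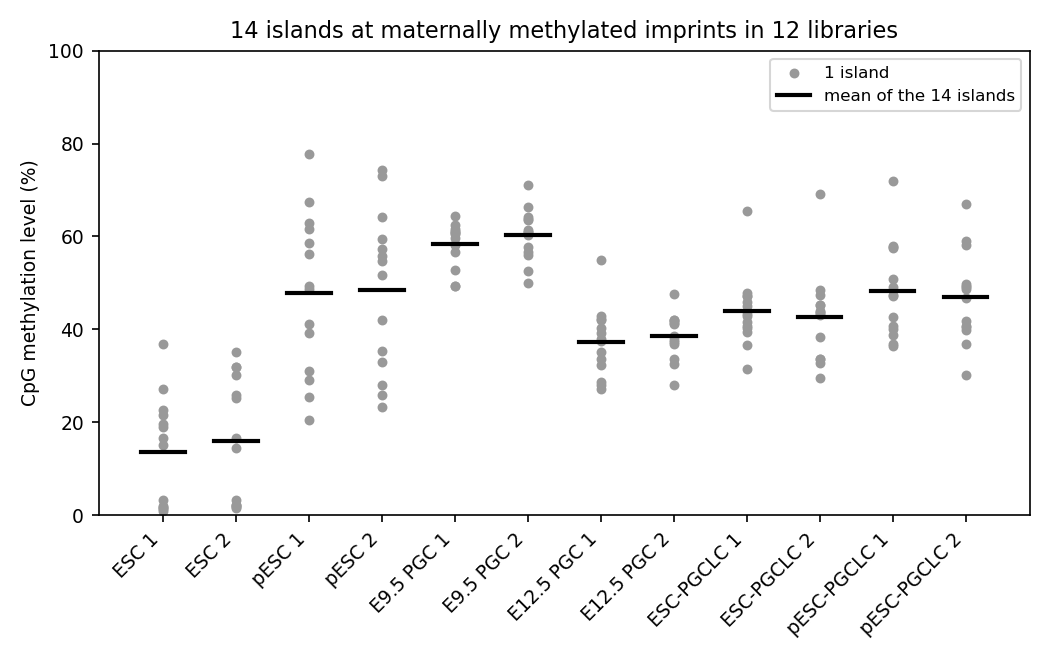
CpG methylation level in percent (vertical axis) of the 14 islands at maternally methylated imprints in each of the 12 libraries, with 1 grey point per island and a black bar at their mean. The bars lie at 13.5% and 16.02% in the ESC libraries, whose levels helped to choose the islands, and between 37.3% and 60.4% in the others.

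At the end of the X chromosome a further locus was higher in pESCs, with 7 features past the gap. Mid1, a ubiquitin ligase gene, crosses the border of the pseudoautosomal region there, where X and Y share sequence. The island at chrX:169986833-169987790, in exons of Mid1 and Gm15247, had 25.1% and 24.5% in ESCs and 46.3% and 46.0% in pESCs, an adjusted p of 1.0 in the fit of 4 libraries and 0.0142 in the fit of 12. The intron of Mid1 had 28.0% and 28.0% against 44.3% and 44.7%. The 7 features are not all separate: the island and a shore had equal values, as had the Gm15726 promoter and another shore. The groups overlapped at the promoter of Mid1, with 32.6%, 26.6%, 32.4% and 34.9% in ESC 1, ESC 2, pESC 1 and pESC 2. They also overlapped at its exons (35.3%, 23.2%, 36.4% and 30.8%) and at the Asmt island on the X (67.1%, 56.1%, 59.9% and 56.8%). An island near the end of the Y, chrY:90740953-90744975, had 45.9% and 37.6% against 61.0% and 59.5%, and the intron of Gm47283 on the Y had 33.8% and 32.2% against 51.9% and 52.6%. Reads from near-identical X and Y copies cannot be assigned with certainty, so the Y-linked values are uncertain. The 6 single-copy Y-linked genes checked had no level in any of the 4 ESC and pESC libraries.

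On the X chromosome as a whole the pESC means lay between those of the ESC libraries. X-linked islands had 4.55% and 3.92% in ESCs and 3.99% and 4.17% in pESCs, and X-linked promoters had 20.7% and 17.1% against 18.9% and 18.6%. Features lower in pESCs without overlap made up a larger share on the X than over the autosomes in every class with positions, least so among 5' UTRs (11.8% and 10.2%). Among islands the share was 10.8% of 353 on the X and 6.75% on the autosomes (from 5.62% to 8.02% on single autosomes), among promoters 12.3% and 5.83% (3.80% to 7.43%), and among introns 8.74% and 3.64% (2.55% to 4.41%). Among exons the shares were 9.50% and 4.90% (3.44% to 6.51%) and among shores 11.5% and 7.94% (5.95% to 9.90%), but the X lay inside the range of single autosomes for 5' UTRs (7.06% to 13.2%) and 3' UTRs (7.14% of 42, in 2.72% to 8.30%). Features higher without overlap made up 7.37% of X-linked islands and 5.75% of autosomal ones, and 9.03% and 9.29% of promoters. Only 1 of the X-linked promoters lower without overlap, Magea5, and no X-linked island reached a gap of 10 points. Neighbouring features share cells and libraries, so these shares are a description with no test.

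Outside the imprints the higher features were mostly single ones. Psmd11, a proteasome subunit gene, was past the gap at its 5' UTR (5.73% and 3.33% against 39.9% and 25.4%) and its exons, and Mta3, a chromatin remodelling subunit gene, at its promoter (5.82% and 3.62% against 25.3% and 40.7%). The exons of Col6a5, a collagen gene, had 16.7% and 25.0% against 52.4% and 60%, and the introns of Arl13b, a cilium GTPase gene, had 16.1% and 13.5% against 37.4% and 36.0%. The shore at Gm20768 had 4.69% and 4.11% against 27.5% and 33.3%. None of these had an adjusted p under 0.05 in the fit of 4 libraries, and the Mta3 promoter and the Gm20768 shore were not measured in all 12. In the 3' UTR class Sesn1, a stress-response gene, had 41.7% and 45.5% against 59.6% and 63.5%.

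Lower features formed no locus like the imprints. The 51 outside repeats fell into 45 loci, and the one with the most features, 4, was at Gm5124 on the X, where the same CpGs had 69.0% and 40% in ESCs and 0% and 20% in pESCs. The only lower island lay at Nrip1, a nuclear receptor corepressor gene (chr16:76293288-76293490), with 37.0% and 50.0% against 20.7% and 23.4% and a gap of 13.5 points. Among promoters the largest gaps were at Dcdc5, with 50.0% in both ESC libraries against 24.2% and 18.8%, and at Odf3l2, a gene of the sperm tail family, with 47.6% and 48.3% against 24.8% and 20.8%. Magea5, a germline antigen gene of the X, had 68.6% and 73.0% against 54.8% and 53.6%. Among gene bodies the largest gaps were at the intron of Gm48935 (75.0% and 83.3% against 26.9% and 16.7%) and the exon of Gm22968 (100% and 83.3% against 40% and 11.1%). With a smaller gap of 17.6 points, the intron of Nsdhl, a cholesterol synthesis gene of the X, had 55.8% and 55.4% against 37.8% and 35.2%. The shore at Kcnk1 had 60% and 35.6% against 18.1% and 16.4%. The fit of 12 libraries called 1 lower feature, an entry of the L1MdF_III repeat with 16.7% and 32.1% in ESCs and 0% in both pESC libraries.

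The other gene lists are read against the 9.28% of all promoters that were higher and the 6.03% that were lower without overlap. Of 17 pluripotency promoters 2 were higher and 2 lower without overlap. Levels were low in all 4 libraries, as with Pou5f1 (2.67%, 2.93%, 2.38% and 3.57%), which encodes a core pluripotency factor, and the largest difference was at Lin28a, with 9.73% and 9.79% against 12.6% and 12.1%. Of 30 germline promoters 3 were higher and 1 lower without overlap and none reached the gap. Tdrd9, a piRNA pathway helicase gene, had 8.33%, 56.9%, 69.1% and 65.7%, so its difference rests on ESC 1, and Spo11, which makes the breaks of meiotic recombination, had 9.16% and 11.9% against 20.2% and 18.2%. Sycp3, of the synaptonemal complex, went the other way, with 21.4% and 21.6% against 12% and 17.4%.

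Of 11 promoters of X-linked reproductive homeobox and related genes 0 were higher and 2 lower without overlap, with ESC libraries far apart at 53.3% and 34.9% and pESC libraries at 47.6% and 37.8%. Rhox6 had 40.5%, 25.2%, 44.0% and 39.3%. Of 23 promoters of the methylation machinery 6 were higher (26.1%) and 2 lower (8.70%). Their mean was 9.39% and 9.72% in ESCs and 10.3% and 10.9% in pESCs, a difference of 1.07 points with an exact permutation p of 0.333. The largest differences were at Ehmt1, a histone methyltransferase gene (37.9%, 41.0%, 47.4% and 41.3%), and Setdb1 (1.75%, 2.89%, 11.2% and 2.52%). Of 13 trophoblast promoters 3 were higher and 1 lower, and the only one past the gap was Peg10, which is also on the imprint list. Elf5, a trophoblast stem cell factor gene, had 44.0%, 26.8%, 33.8% and 29.5%. Of 18 early lineage promoters 2 were higher and 0 lower, with the largest difference at Gata4, 6.16% and 4.91% against 8.79% and 6.27%, and of 34 Hox promoters 6 were higher (17.6%) and 0 lower. The largest difference of means among the Hox promoters was at Hoxa6, where the groups overlapped, with 29.6%, 20.7%, 26.1% and 29.96%.

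The labelled cell type was checked at promoters of marker genes. The 6 measured pluripotency markers lay between 0.426% and 10.03% in all 4 libraries. Feeder fibroblasts are another cell type in the cultures, and the mean of their 5 marker promoters (Thy1, Col1a1, Col1a2, Twist1, Prrx1) was 17.8% and 12.3% in ESCs and 15.1% and 13.8% in pESCs, so that the ESC libraries enclosed the pESC libraries. Germ cell markers had means of 34.0% and 22.8% against 28.4% and 22.6%. The part of feeder DNA in the values above was not tested.

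Repeats, pooled by element name and position within the consensus, were close between the cell types. Without overlap 7.02% of 43277 entries were higher in pESCs and 7.99% lower. Past the gap of 10 points 0.256% were higher and 0.275% lower. Internal parts of IAP elements, retroviruses that stay methylated through early development, had 71.0% and 66.2% in ESCs and 68.3% and 67.3% in pESCs, with 5.51% of 653 entries higher and 14.2% lower without overlap, and 2 and 0 past the gap. Young L1Md elements had 56.9%, 49.3%, 53.7% and 51.6%, with 6 entries higher (0.0716%) and 18 lower (0.215%) past the gap among 8385. Both shares were under those of all repeats. MERVL and MT2 elements, active in cells of the early embryo, had 47.3%, 37.3%, 42.6% and 41.0%. B1 elements had 39.8%, 31.9%, 36.6% and 35.2%, with 15 higher (0.539%) and 7 lower (0.252%) past the gap among 2782. B2 elements had 43.7%, 34.9%, 40.4% and 37.9%. In each of these groups the means of the pESC libraries lay between those of the ESC libraries.

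The largest single repeat entries were an RSINE1 entry with 0% and 4.76% in ESCs and 50.8% and 57.8% in pESCs, and a B2_Mm1t entry with 75.0% and 83.3% against 26.9% and 16.7%. Neither had an adjusted p under 0.05. The B2_Mm1t entry had the same values as the intron of Gm48935 given above, so the 2 are not counted as separate results. In the fit of 12 libraries the 2 repeats called higher were entries of BC1_Mm, with 2.46% and 4.38% against 18.5% and 14.1%, and of YREP_Mm, with 2.38% and 2.78% against 20.8% and 14.8%.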

How the data were processed

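RRBS levels of 12 mouse libraries (6 groups of 2) were used as deposited: per the labels and the study's methods the authors aligned reads with Bismark 0.16.3 and Bowtie2 to mm10 and gave each feature a fraction, methylated over all CpG calls, corrected for non-conversion. No read counts come with the fractions, so depth is unknown, no counting interval can be given, and a feature read few times weighs as much as others. Features with a level numbered from 152190 to 166476 in the 4 ESC and pESC libraries. Of 30073 gene identifiers 30060 matched GENCODE M21.

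Fractions were turned into log2((level + 0.01)/(1 - level + 0.01)) and tested with limma 3.58.1 (R 4.3.3) over the 148012 features, with Benjamini-Hochberg adjustment and a call at an adjusted p under 0.05 and 10 points or more. The test was checked on simulated data. Summary values were tested by exact two-sided permutation of the library values (Python 3.11.15). The gap is the distance between the nearest libraries of the 2 groups where they do not overlap. Members and lists were chosen with earlier results of these data known. Named genes were the imprint list members with the largest gaps and every one that overlaps or goes against its list, up to 6 features per class and direction by gap, and 2 to 4 members of each other list by difference of means. Islands took the name of the gene they overlap or whose start is nearest within 5 kb, and the islands at Plagl1, Inpp5f and Mid1 are listed under Gm27741, Gm43580 and Gm15247. Another offset, untransformed levels, centring, a level filter, the fit of 12 libraries, the replicate block and leaving out each library were tried.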

Additional observations from a re-analysis of the deposited data

Results flagged for a closer look

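Y-linked features with a level numbered 38 and 35 in E9.5 PGCs, 36 and 35 in E12.5 PGCs, 34 and 32 in the libraries labelled ESC-PGCLC, and 29 and 31 in those labelled pESC-PGCLC, against 4 to 6 in the ESC and pESC libraries. All 6 single-copy Y-linked genes checked had a level in each of those 8 libraries and 0 in the 4 ESC and pESC libraries. The labels name a female or parthenogenetic source for the PGCLCs and the study's methods name female embryos for the PGCs. The cause was not tested, and PGC and PGCLC values at the imprinted islands are those of the libraries labelled so.

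At the Nnat island pESC-PGCLCs minus ESC-PGCLCs was -3.94 points, with every pESC-PGCLC library below every ESC-PGCLC library, while pESCs minus ESCs was 14.4 points with every pESC library above. The difference between the 2 contrasts was not tested.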

How the results depend on the processing

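The number of features called was 0 by limma on 4 libraries and 70 in the fit of all 12. Leaving out 1 library gave from 0 to 742 calls, with 742 without pESC 1 and 91 without pESC 2. The lone library is then assumed to vary like the other group, and 28 of the 742 and 40 of the 91 had ESC levels within 0.1 point of each other. With the replicate block 0 features were called (4769 at an unadjusted p under 0.05, smallest adjusted p 0.0529). The numbers share no stated origin, and differences between replicates 1 and 2 correlated at 0.358 between ESCs and pESCs over features. Features higher past the gap numbered 82 at 20 points and 161 among features in all 12 libraries, and the lower ones 20 and 57. Leaving out 1 library gave 1041 to 4167 higher (4167 without ESC 1, 1041 without ESC 2, 1240 without pESC 1, 1392 without pESC 2) and 692 to 8122 lower (692, 8122, 1162 and 882). The higher islands at maternal imprints then numbered 14 or 15, with 0 lower there. All higher islands numbered 74 without ESC 1, 17 without ESC 2, 24 without pESC 1 and 23 without pESC 2, against 16 in the main count. All lower islands numbered 7, 104, 5 and 1 in the same order, against 1 in the main count. The share of higher islands that lay at maternal imprints thus depended on the libraries used. Leaving out 1 library moved the promoter class difference between -1.49 and 1.55 points, the X-linked promoter difference between -1.89 and 1.68 and the maternal imprint islands between 13.9 and 14.1. Taking the median over features within each library, then the difference of the group means, gave 18.8 for maternal imprint promoters, 5.98 for maternal imprint islands and -0.202 for paternal imprint promoters, which is not the median of the differences given above. Maternal imprint promoters in all 12 libraries gave 17.7 and islands within 1 kb of a gene start 13.5. The cause of these shifts was not tested. The other 108 values moved by less than the spread between replicates, kept their call or, for gap counts, stayed near the main count. Such were the counts after shifting each library to the same median within its class, 241 higher and 202 lower. Small differences of class means changed sign, such as the global one, from -2.53 points without ESC 2 to 2.35 without ESC 1.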
